A study of Mus musculus with 7 samples.

Results

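The genes whose symbol starts with Ube2 encode ubiquitin-conjugating (E2) enzymes and close relatives, and 27 of them were followed in blood progenitor cells of mice labelled TRAF6 transgenic and of wild-type littermates. Members were the transcript clusters (the array's unit for a gene) to which the platform annotation gives a single symbol of this kind, 27 of 14860 genes with a cluster of their own. Each member had 1 cluster. Ube2v1, Ube2g2 and Ube2j2 share a cluster with another gene, so no level is given for them here.

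Bone marrow came from adult, untreated FVB mice, 3 labelled TRAF6 transgenic (03, 04 and 05) and 4 wild type (21, 22, 23 and 24). Cells without lineage markers and with both Sca-1 and c-Kit (LSK), which are rich in stem and progenitor cells, were sorted by flow cytometry. Amplified RNA of each mouse was read on 1 Affymetrix mouse exon array, and values are log2 levels per cluster. The labels give neither sex nor the promoter that drives the transgene.

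Ubiquitin is passed from an activating (E1) enzyme to the active-site cysteine of an E2, and an E3 ligase then brings the loaded E2 to a substrate. With many ligases the E2 largely sets which chain is built. TRAF6 is an E3 ligase of Toll-like and interleukin-1 receptor signalling, and it works with Ube2n (Ubc13) and its catalytically inactive partner Ube2v1 to build Lys63-linked chains, which recruit kinases upstream of NF-kB. Other members serve cell division, DNA repair, protein quality control in the endoplasmic reticulum (ER), or the ubiquitin-like proteins NEDD8, ISG15 and FAT10.

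The transgene's own gene, Traf6, gave no check of the label. It stood at 8.06, 8.14 and 7.52 on 03, 04 and 05 and at 7.95 to 8.33 in wild type (limma adjusted p = 0.676). The Y-linked gene Eif2s3y was at 2.91 to 3.05 on the arrays labelled transgenic and at 8.05 to 8.64 in wild type. Genotype and this Y-linked signal cannot be told apart here. Of the sorted markers, Kit was at 10.15 to 10.67 on the 7 arrays, while Ly6a (Sca-1) had no cluster of its own. Cd34, a progenitor marker that the sort did not use, was at 10.77 to 11.19. Labelled transgenic 05 stood apart, with the lowest mean correlation with the other arrays (0.966) and the lowest array weight (0.284).

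No member passed the test across all 23332 clusters (limma, Benjamini-Hochberg adjusted p under 0.05), where 5 clusters, 0.0214%, did. Among those 5 were the Y-linked genes Eif2s3y (limma adjusted p = 1.82e-05) and Kdm5d (limma adjusted p = 0.00528), both lower on the arrays labelled transgenic. At unadjusted p under 0.05, 2 members were higher, Ube2c and Ube2l6, and 3 were lower, Ube2f, Ube2j1 and Ube2h, against a background of 5.22% of clusters higher and 5.05% lower. After quantile normalization the counts were 4 higher and 3 lower, and with array medians centred 5 higher and 3 lower. The shares of all clusters were not counted under these settings, so these counts have no background. With the deposited scaling, the members at this level are 18.5% of the 27 beside 10.3% of clusters. The groups did not overlap in 4 members, or 14.8% beside 10.4% of clusters. Ube2c and Ube2l6 were higher in this way (background 5.17%), and Ube2f and Ube2j1 lower (background 5.18%). Differences are labelled transgenic minus wild type. They ran from -0.46 for Ube2h to 0.52 for Ube2c, with 11 members above 0 (background 49.7%) and 16 below, and the median was -0.0154 beside -0.00176 for all clusters. The differences of all 27 members were under 1.5-fold, and their 95% intervals stayed within 2-fold in either direction. A limma p-value here sets the group difference against the spread between these mice, moderated over all clusters. It cannot separate genotype from the Y-linked signal.

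**Figure D1:**
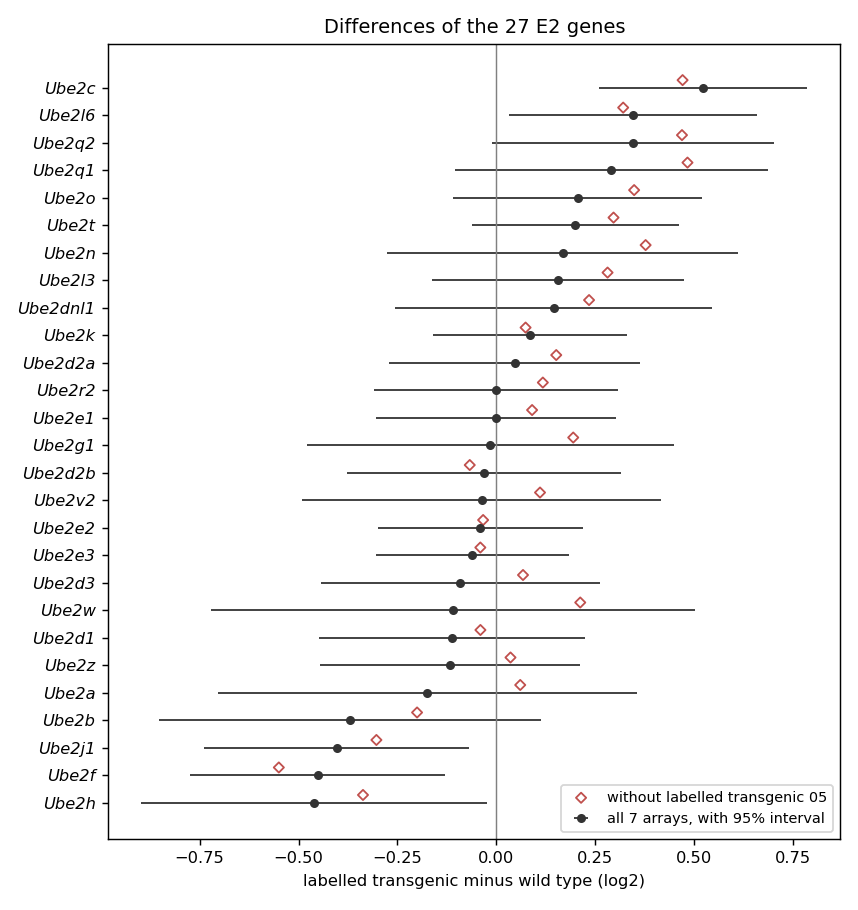
Difference of each of the 27 E2 genes in log2 units, labelled transgenic minus wild type. Filled points with lines are the limma estimate and its 95% interval over 7 arrays, and open diamonds the estimate without labelled transgenic 05. Ube2c lies at the top (0.52) and Ube2h at the bottom (-0.46), and most diamonds lie to the right of their points.

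The promoters of 3 members are shown because Ube2c and Ube2t belong with the genes of dividing cells and Ube2f was the member with the lowest unadjusted p on the lower side. They run 5′ to 3′ on the gene's strand, from 250 bases before to 50 after the annotated start, and are RefSeq sequences of build GRCm38.p6. Capitals mark CCAAT boxes (CCAAT or its reverse ATTGG), which bind the factor NF-Y, and the cell cycle genes homology region, or CHR (TTTGAA or its reverse TTCAAA), which binds complexes that restrain and drive mitotic genes.
Ube2c, chr2:164769679-164769978, plus strand: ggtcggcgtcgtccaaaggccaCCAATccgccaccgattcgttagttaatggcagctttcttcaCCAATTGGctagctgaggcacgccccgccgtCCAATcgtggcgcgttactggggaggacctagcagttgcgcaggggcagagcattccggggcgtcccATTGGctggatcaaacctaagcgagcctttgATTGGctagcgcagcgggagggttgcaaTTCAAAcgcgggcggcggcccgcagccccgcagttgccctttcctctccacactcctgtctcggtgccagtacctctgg
Ube2t, chr1:134962315-134962614, plus strand: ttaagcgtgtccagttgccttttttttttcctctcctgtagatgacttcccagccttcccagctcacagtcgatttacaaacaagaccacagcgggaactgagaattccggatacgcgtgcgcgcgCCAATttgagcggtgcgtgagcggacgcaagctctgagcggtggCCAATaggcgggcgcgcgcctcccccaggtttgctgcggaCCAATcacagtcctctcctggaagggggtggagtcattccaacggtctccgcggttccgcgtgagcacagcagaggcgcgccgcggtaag
Ube2f, chr1:91250054-91250353, plus strand, upstream start: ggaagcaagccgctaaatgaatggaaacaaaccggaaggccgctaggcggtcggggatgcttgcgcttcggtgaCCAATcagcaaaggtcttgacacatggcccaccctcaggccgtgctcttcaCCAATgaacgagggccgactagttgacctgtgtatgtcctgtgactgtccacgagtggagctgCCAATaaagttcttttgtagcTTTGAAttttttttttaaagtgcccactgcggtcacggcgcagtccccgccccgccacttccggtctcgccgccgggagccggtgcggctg

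The Ube2c window held 6 CCAAT boxes and 1 CHR at position -29 from the start. Of its boxes, those at -186 and -183 overlap each other. The Ube2t window held 3 CCAAT boxes and no CHR. The upstream window of Ube2f held 3 CCAAT boxes and a CHR at -41, and its second window, at the downstream start, held neither. RefSeq promoters were at hand for 22 of the 27 members, of which 7 had a CCAAT box (31.8%) and 4 a CHR (18.2%) in some window. Over all 27025 genes with a promoter the shares were 41.1% and 20.2%. Among 19 genes of a list of mitotic markers they were 78.9% and 68.4%. The interferon response core GAAANNGAAA was in the window of 1 member, Ube2dnl1, beside 3.99% of all genes. A kB-like motif, GGGNNTTTCC, was in 0 of the 22, beside 1.89% of all genes. Both strands were searched for each motif. Ube2n and Ube2l6 held none of the motifs searched. A match shows letters in a window and nothing about binding.

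Ube2n, the E2 that TRAF6 uses for Lys63-linked chains, was not separated by label. Its levels were 7.27, 7.03 and 6.52 on labelled transgenic 03, 04 and 05, and 6.93, 6.79, 6.80 and 6.55 on wild type 21 to 24. The first 2 of these arrays lay above every wild-type array, and 05 lay below them. The difference was 0.17 (SE 0.19, limma adjusted p = 0.800), with a 95% interval from -0.28 to 0.61. An exact two-sided permutation test gave p = 0.400, where 0.0286 is the smallest p that 35 assignments allow. Without labelled transgenic 05 the difference was 0.38 (SE 0.14, adjusted p = 0.277), and without 03 it was 0.00285.

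Ube2v2 (Mms2), a relative of Ube2v1 that also pairs with Ube2n and is best known from DNA damage tolerance, overlapped fully. It stood at 9.62, 9.46 and 9.10 on labelled transgenic 03, 04 and 05, and at 9.27, 9.45, 9.18 and 9.82 in wild type. Wild type 24 was the highest array and labelled transgenic 05 the lowest. The difference was -0.04 (SE 0.19, adjusted p = 0.971; exact permutation p = 0.857, two-sided), and it changed sign without labelled transgenic 05 (0.11).

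Other components of Lys63 signalling, 12 measured of 18 listed, had 7 differences above 0 (background 49.7%) and 5 below, with a median of 0.0666. At unadjusted p under 0.05, 2 were higher (background 5.22%) and 1 was lower (background 5.05%). With labelled transgenic 05 left out, 8 were above 0 and 4 below. Rnf168, a ligase that works with Ube2n at DNA breaks, was the one of these 3 whose values were higher without overlap, at 8.58 ± 0.11 (SD, n = 3) beside 8.26 ± 0.08 (SD, n = 4), which is 0.32 apart (limma adjusted p = 0.400). Traf2, a relative of TRAF6, differed by 0.50 with overlap (adjusted p = 0.449). Tnip1, which binds ubiquitin chains and restrains NF-kB signalling, differed by -0.42 without overlap (adjusted p = 0.466), and by -0.23 without labelled transgenic 05.

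**Figure D2:**
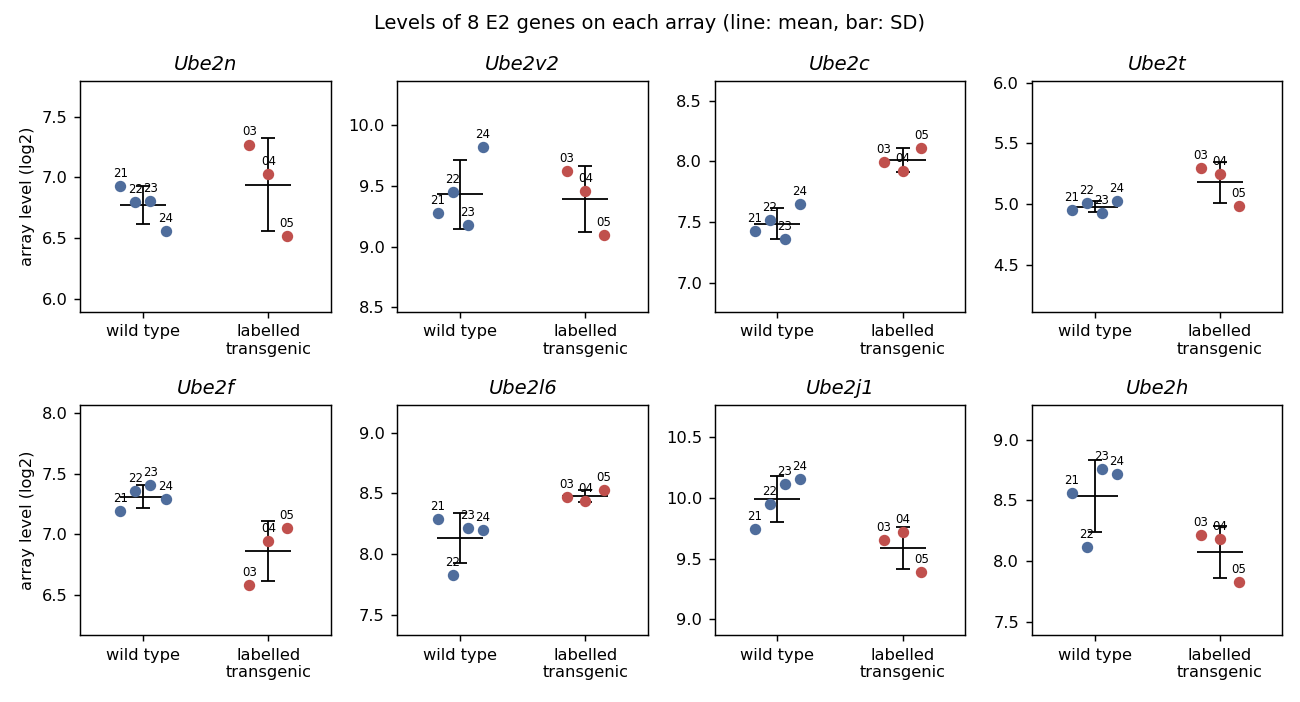
Level of 8 E2 genes on each array in log2 units. Each point is 1 mouse, numbered as in the text, each long line a group mean and each bar 1 SD, and all panels span the same height. The 3 labelled transgenic arrays lie above the wild-type arrays for Ube2c and Ube2l6, and below them for Ube2f and Ube2j1.

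Ube2c (UbcH10) starts the chains that the anaphase-promoting complex places on cyclin B and securin, and it is a common marker of dividing cells. Its levels were 7.99, 7.92 and 8.11 on labelled transgenic 03, 04 and 05, and 7.42, 7.52, 7.36 and 7.65 on wild type 21 to 24. The groups did not overlap, and 05 was the highest array. The means were 8.01 ± 0.10 (SD, n = 3) and 7.49 ± 0.13 (SD, n = 4), a 1.44-fold difference of 0.52 (SE 0.11, limma adjusted p = 0.283). The exact two-sided permutation test gave p = 0.0286, the smallest this design allows. Over the 15 alternatives, the difference lay between 0.47 and 0.58 and the limma adjusted p between 0.0976 and 0.616. Its sign could not change on leaving out 1 array, since the groups did not overlap. That Ube2c is among the higher cell cycle genes was known from earlier results of these data and is no independent evidence.

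Ube2t, the E2 of the Fanconi anaemia pathway that helps mark FANCD2 at DNA crosslinks, was measured at a low level. It stood at 5.30, 5.25 and 4.99 on labelled transgenic 03, 04 and 05, and at 4.95, 5.01, 4.93 and 5.03 in wild type. The first 2 arrays lay above all wild-type arrays and 05 among them. The difference was 0.20 (SE 0.11, adjusted p = 0.579), and 0.30 (SE 0.09, adjusted p = 0.224) without 05. Without 03 Ube2t differed by 0.14 (limma adjusted p = 0.749). Its cluster lies below 5.50, the 40th percentile of all clusters, and the array gives no detection call. Among 10 measured partners of the Rad6 and Fanconi enzymes, 6 were above 0 and 4 below, none at unadjusted p under 0.05 by limma. Wac stood at -0.33, Fanci at 0.27 and the ligase Fancl at 0.20, and without labelled transgenic 05 at -0.22, 0.43 and 0.35. Without labelled transgenic 03 Fanci was at 0.18 and Fancl at 0.07.

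Mitotic markers had positive differences beside Ube2c. All 23 measured of 25 listed had a positive difference (background 49.7%), with a median of 0.34. By limma 9 were at unadjusted p under 0.05 (background 5.22%) and 0 at the adjusted threshold. Kif20a, a kinesin of cell cleavage, differed by 0.49 (SE 0.12, adjusted p = 0.332), and Bub1b, a spindle checkpoint kinase, by 0.42 (SE 0.11, adjusted p = 0.350). Prc1, a bundler of spindle microtubules, differed by 0.54 (SE 0.15, adjusted p = 0.371). Ube2c and these markers parted on labelled transgenic 05. Relative to the wild-type mean, Ube2c stood at 0.51, 0.44 and 0.63 on 03, 04 and 05, and the mean of the markers at 0.51, 0.33 and 0.14. The marker mean was -0.13, 0.19, -0.18 and 0.12 on wild type 21 to 24, so the groups overlapped in it, with 05 inside the wild-type range. On 05 all 23 markers had a smaller deviation than Ube2c, the highest being 0.36, whereas on 03 and 04 there were 10 and 16 such markers. The lead of Ube2c on 05 was noticed in the values and not tested. Ube2t followed the markers there, at 0.32, 0.27 and 0.00737.

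Subunits and activators of the anaphase-promoting complex were split in direction. Of 16 measured, 10 were above 0 (background 49.7%) and 6 below, 0 at unadjusted p under 0.05 by limma, and the median was 0.14. Leaving out labelled transgenic 05 put 13 above 0. Anapc10 stood at -0.40 (adjusted p = 0.488), Cdc23 at 0.34 (adjusted p = 0.493) and Cdc27 at -0.32 (adjusted p = 0.548), each with overlap between the groups. Cdc27 was at -0.19 without labelled transgenic 05.

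**Figure D3:**
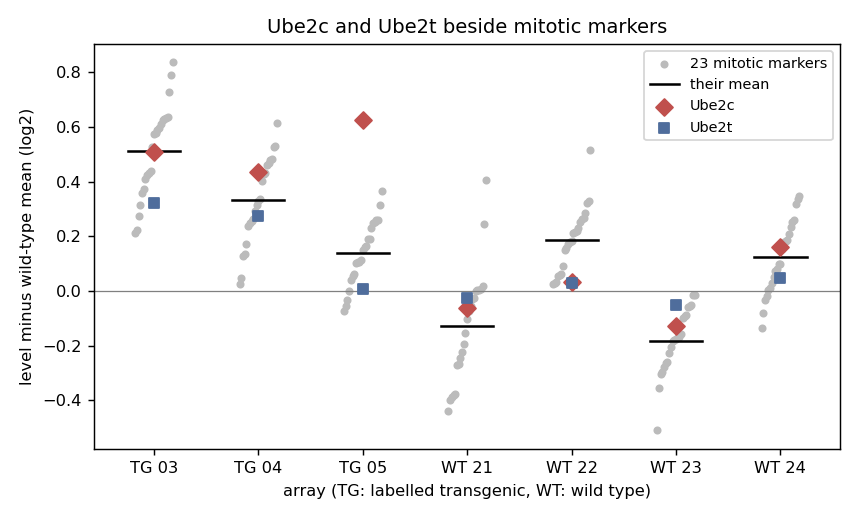
Level minus the wild-type mean, in log2 units, of Ube2c (diamonds), Ube2t (squares) and 23 mitotic markers (grey points, with their mean as a line) on each array. On labelled transgenic 05 Ube2c (0.63) lies above every marker, the highest of which is at 0.36.

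Among the E2s of ubiquitin-like proteins, 1 was higher and 2 were lower. Ube2l6 (UbcH8), which loads the interferon-induced modifier ISG15, stood at 8.47, 8.43 and 8.53 on labelled transgenic 03, 04 and 05, and at 8.29, 7.83, 8.21 and 8.19 in wild type. The labelled transgenic arrays lay close together (SD 0.05) above the wild-type arrays, of which 22 was lowest. The difference was 0.35 (SE 0.13, adjusted p = 0.449), and 0.32 (adjusted p = 0.375) without 05. Without wild type 22 it was 0.25 (limma adjusted p = 0.608). Isg15 itself, the E1 gene Uba7 and Usp18 had no cluster of their own. Of the 4 measured partners 3 were higher, 0 at unadjusted p under 0.05 by limma, with a median of 0.20. These were Irf7 (0.32), Stat2 (0.22) and Irf9 (0.18), all factors of the interferon response with overlap between the groups, while the ISG15 ligase gene Trim25 stood at -0.14.

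Ube2f, which passes NEDD8 to the cullin Cul5 with the RING protein Rnf7 (RBX2), was the clearest member on the lower side. It stood at 6.58, 6.94 and 7.06 on labelled transgenic 03, 04 and 05, and at 7.19, 7.36, 7.41 and 7.29 in wild type. The groups did not overlap, and here 05 was nearest to wild type. The difference was -0.45 (SE 0.14, adjusted p = 0.384), and -0.55 (SE 0.13, adjusted p = 0.188) without 05. Without 03 the Ube2f difference was smaller, at -0.31 (limma adjusted p = 0.512). Its partners Rnf7 (-0.00416), Cul5 (0.08) and Nedd8 (0.17) overlapped between the groups. Of 24 measured genes of cullin, SUMO and NEDD8 conjugation, 12 were above 0 (background 49.7%) and 12 below, with a median of -0.00128. These counts were 19 and 5 without labelled transgenic 05. At unadjusted p under 0.05, 2 were higher (background 5.22%) and 1 was lower (background 5.05%). The lower one was Dcun1d1, a factor that speeds NEDD8 transfer to cullins, at -0.70 (SE 0.19, adjusted p = 0.353) without overlap. Its relative Dcun1d2 differed by 0.53 (adjusted p = 0.437) and the SUMO protease gene Senp1 by 0.41 (adjusted p = 0.468), both with overlap. Ube2z, which takes ubiquitin and FAT10 from the E1 Uba6, stood at -0.12 (SE 0.14).

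Ube2j1, a membrane-anchored E2 of ER-associated degradation, was lower without overlap. Its levels were 9.65, 9.72 and 9.39 on labelled transgenic 03, 04 and 05, and 9.75, 9.95, 10.12 and 10.16 in wild type. Labelled transgenic 04 and wild type 21 were separated by little. The difference was -0.40 (SE 0.14, adjusted p = 0.421), and -0.30 (adjusted p = 0.371) without 05. Ligases and other factors of ER quality control, 10 measured, had 4 differences above 0 (background 49.7%) and 6 below, with a median of -0.11. Of these, 0 were at unadjusted p under 0.05 by limma. The count above 0 was 6 without labelled transgenic 05. Aup1 was higher (0.21, background 5.17%) and Derl3 lower (-0.17, background 5.18%) without overlap, and Derl2 differed by 0.22 with overlap. Both gaps were small. For Aup1 the nearest arrays were labelled transgenic 05 at 9.97 and wild type 24 at 9.94. For Derl3 they were labelled transgenic 04 at 5.72 and wild type 24 at 5.74.

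Ube2h, the E2 of the CTLH ligase complex, which acts in red cell maturation, had overlapping groups. It stood at 8.22, 8.18 and 7.83 on labelled transgenic 03, 04 and 05, and at 8.56, 8.11, 8.76 and 8.71 in wild type. Wild type 22 lay among the labelled transgenic arrays. The difference was -0.46 (SE 0.19, adjusted p = 0.459), and -0.34 (SE 0.20, adjusted p = 0.469) without 05. Of 11 CTLH genes measured, 4 were above 0 (background 49.7%) and 7 below, with a median of -0.0524. The counts turned to 7 above and 4 below without labelled transgenic 05. By limma 0 were higher and 2 lower at unadjusted p under 0.05 (background 5.05% lower). The lower ones were Ypel5 at -0.61 (adjusted p = 0.421) and Wdr26 at -0.43 (adjusted p = 0.453), both with overlap, and Rmnd5b stood at -0.36 (adjusted p = 0.508). Without labelled transgenic 05, Ypel5 was at -0.41, Wdr26 at -0.29 and Rmnd5b at -0.19.

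Of the 8 enzymes of Lys48-linked and other chains, Ube2h included, 5 were above 0 (background 49.7%). By limma 0 were higher and 1, Ube2h, was lower at unadjusted p under 0.05 (background 5.05%). Ube2q2, a little-studied E2, stood at 9.08, 9.05 and 8.69 on labelled transgenic 03, 04 and 05, and at 8.41, 8.74, 8.46 and 8.77 in wild type, a difference of 0.35 (SE 0.15, adjusted p = 0.498). Its relative Ube2q1 stood at 8.26, 8.47 and 7.79, and at 7.99, 7.76, 7.90 and 7.87, a difference of 0.29 (SE 0.17, adjusted p = 0.594) that was 0.48 without 05 and 0.14 without 04. In both, 03 and 04 lay above every wild-type array and 05 did not.

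Ube2o, a large enzyme with both E2 and E3 activity that clears proteins in maturing red cells, stood at 7.36, 7.23 and 6.87 on labelled transgenic 03, 04 and 05, and at 6.95, 6.92, 6.91 and 7.00 in wild type. The difference was 0.21 (SE 0.13, adjusted p = 0.637), and it was 0.35 without 05 and 0.10 without 03. Ube2l3 (UbcH7), which serves the ligase complex of linear chains and the RBR ligases, stood at 9.96, 9.96 and 9.59, and at 9.65, 9.84, 9.54 and 9.69 in wild type, a difference of 0.16 (SE 0.14, adjusted p = 0.732). It was 0.28 without 05 and 0.09 without 03 or 04. Again 03 and 04 were above wild type and 05 was not. Ube2k, which builds Lys48-linked chains, differed by 0.09, and Ube2g1 and Ube2r2, which extend chains on substrates of cullin ligases, by -0.02 and -0.00129.

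Both Rad6 enzymes were below 0. Ube2b, which with Rad18 marks PCNA at stalled forks, stood at 8.79, 8.49 and 8.13 on labelled transgenic 03, 04 and 05, and at 8.45, 8.83, 8.97 and 9.10 in wild type, with overlap. The difference was -0.37 (SE 0.21, adjusted p = 0.580), and -0.20 without 05. Its X-linked copy Ube2a differed by -0.17 (SE 0.23), and by 0.06 without 05.

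The 9 members that start chains or act with many ligases had differences between -0.11 and 0.15, with 2 above 0 (background 49.7%) and 7 below and 0 at unadjusted p under 0.05 by limma. Without labelled transgenic 05 they lay between -0.07 and 0.23, with 5 above 0 and 4 below. The broadly used Ube2d1, Ube2d2a and Ube2d3 differed by -0.11, 0.05 and -0.09, and Ube2e1, Ube2e2 and Ube2e3 by -0.00132, -0.04 and -0.06. Ube2w, which modifies the amino terminus of proteins, differed by -0.11 and had the widest spread of all members on the labelled transgenic arrays (SD 0.56, n = 3), where 05 was at 4.83 and the other two at 5.78 and 5.81. Ube2d2b and Ube2dnl1 lay below the 40th percentile of clusters, at means of 4.03 and 2.55 in wild type. Ube2d2a and Ube2d2b are close copies, and whether their probes tell them apart was not tested.

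Labelled transgenic 05 had the lowest value of all 7 arrays for 14 of the 27 members (51.9%), beside 31.3% of all clusters. Above the 40th percentile of level it was 14 of 24 members, beside 42.1% of clusters. Wild type 24 had the highest value for 11 of the 27 members, beside 20.0% of all clusters. The mean over the members was 8.05, 8.03 and 7.73 on labelled transgenic 03, 04 and 05, and 7.84, 7.92, 7.92 and 8.05 in wild type, so the groups overlapped. Over all clusters the medians were 6.17, 6.09 and 5.98, and 6.09 to 6.21 in wild type.

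Without labelled transgenic 05, 19 members were above 0 and 8 below, with a median of 0.11 beside 0.0371 for all clusters. At unadjusted p under 0.05, 7 were then higher (background 11.7%) and 1 was lower (background 4.07%), and 0 passed the adjusted threshold. The 7 were Ube2c, Ube2l3, Ube2n, Ube2o, Ube2q1, Ube2q2 and Ube2t, and the lower one was Ube2f. In 8 members, these 7 and Ube2l6, both remaining arrays lay above all wild-type arrays, 29.6% beside a background of 18.7%, and in 2 members, Ube2f and Ube2j1, below (background 9.15%). These backgrounds take in all clusters, those of low level included. Labelled transgenic 05 was lowest for 42.1% of the brighter clusters, beside 31.3% of all, and most members are among the brighter. Whether the members rose more than other bright clusters without 05 was not tested. The share of all clusters above 0 was not counted without 05, so sign counts of members and lists without it have no background.

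**Figure D4:**
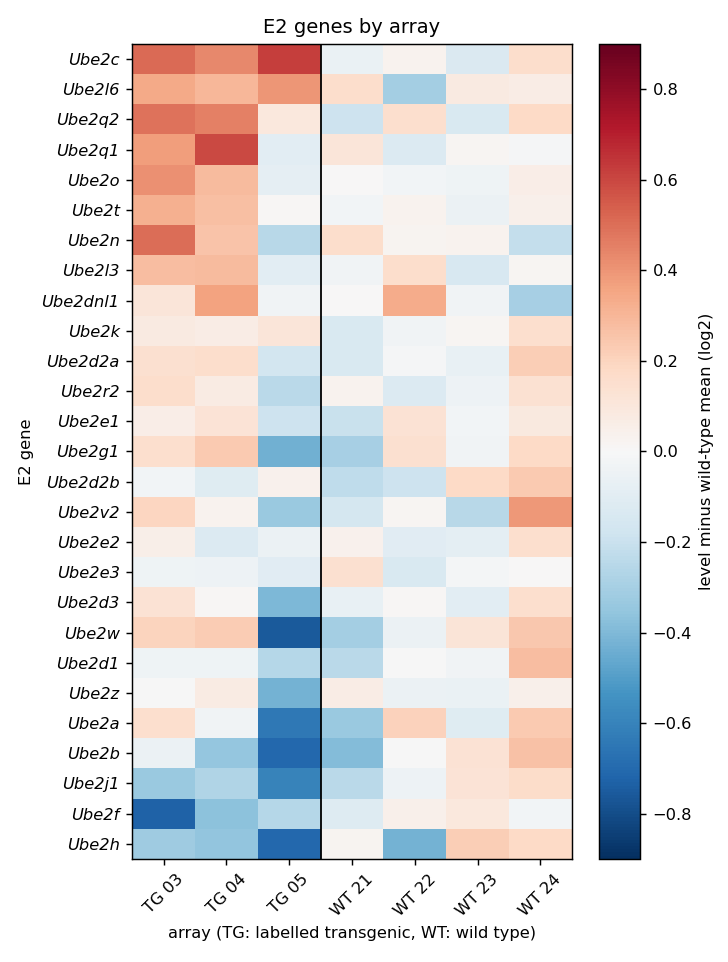
Level of each of the 27 E2 genes on each array minus its wild-type mean, in log2 units (red above, blue below), ordered by the difference between the groups. TG stands for labelled transgenic and WT for wild type. Labelled transgenic 05 is the lowest array for 14 genes, among them Ube2n, Ube2w and Ube2h, yet the highest for Ube2c (0.63 above the wild-type mean).

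Other genes of the conjugation machinery were activating enzymes, E2-like proteins and modifiers. Of 10 E1 and related activating genes, 4 were measured, 1 above 0 and 3 below, with a median of -0.15. Of these, 3 were above 0 without labelled transgenic 05. Sae1, a subunit of the SUMO E1, was the 1 gene of these lists whose groups did not overlap (background 10.4%), at 9.35 ± 0.27 (SD, n = 3) beside 8.85 ± 0.14 (SD, n = 4), which is 0.50 apart (limma adjusted p = 0.384). Uba3 and Nae1, the NEDD8 E1, stood at -0.35 and -0.18, and without labelled transgenic 05 at -0.11 and 0.10. Of E2 and E2-like genes with other names, 5 were measured and all 5 were below 0, with a median of -0.0676 and 0 at unadjusted p under 0.05 by limma. They include Atg10 (-0.15), Aktip (-0.07) and Uevld (-0.07). All 5 were above 0 without labelled transgenic 05, with a median of 0.10. Of the modifiers 3 were measured, Nedd8 (0.17), Atg12 (-0.25) and Ufm1 (-0.07), with a median of -0.07. Their differences were 0.25, -0.02 and 0.04 without labelled transgenic 05.

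Marker lists of other cells also differed between the groups, and their part in the E2 differences was not tested. The sort took cells without lineage markers, and what remained of other cells was not measured. Fewer cells of a type and less RNA per cell cannot be told apart in these bulk samples. The averages of the erythroid, B cell and T and NK cell lists did not overlap between the groups, while those of the granulocyte and LSK lists did. For the erythroid list the nearest arrays were almost level, labelled transgenic 04 at 7.455 and wild type 22 at 7.451. The T and NK averages were not computed without Cd28, whose difference (-1.08) was by far the largest of that list. Of 10 erythroid markers 9 were above 0 (background 49.7%), and 2 were higher at unadjusted p under 0.05 (background 5.22%), Gata1 by 0.61 and Aqp1 by 0.46. Car2 stood at -0.33, and without labelled transgenic 05 Aqp1 was at 0.30 and Car2 at -0.19. The list averaged 7.45 to 7.65 on the labelled transgenic and 7.25 to 7.45 on the wild-type arrays. Granulocyte and monocyte markers were above 0 in 8 of 10, averaging 7.31 to 7.50 against 7.02 to 7.34. Ctsg was at 0.76, Prtn3 at 0.66 and Csf1r at 0.27, and the 2 below 0 were S100a8 (-0.37) and Cebpe (-0.34). S100a8 lay below 5.50, the 40th percentile of all clusters. B cell markers were below 0 in 5 of 7, averaging 5.70 to 5.89 against 6.06 to 6.42. At unadjusted p under 0.05, 4 were lower (background 5.05%), among them Ebf1 at -1.43, Pax5 at -0.66 and Cd79a at -0.67, and 1, Cd79b, was higher, at 0.41. T and NK cell markers were above 0 in 1 of 10 (background 49.7%) and below 0 in 9 of 10 (7 of 10 without labelled transgenic 05). They averaged 5.73 to 5.80 against 5.85 to 6.06, with Cd28 at -1.08, Cd4 at -0.32 and Nkg7 at -0.15. Cd3d, Cd3g, Cd4, Cd8a, Cd8b1 and Gzma lay below 5.50, the 40th percentile of all clusters. Of 8 LSK and stem cell markers 6 were below 0, averaging 8.41 to 9.01 against 8.80 to 9.02, with Flt3 at -0.67, Hlf at -0.57 and Cd48 at 0.55. Without labelled transgenic 05, 4 were below 0, since Kit (0.10) and Mecom (0.28) turned positive, and Hlf was at -0.32. None of these genes passed the adjusted threshold in limma.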

How the data were processed

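The deposited values, 1.28 to 14.03, are on a log2 scale, as read from this range, and the authors used RMA (per the submitters' processing notes, where the build mm9 is listed). RMA equalises arrays and so removes much of a shift shared by most genes. The deposited medians still ran from 5.98 on labelled transgenic 05 to 6.21 on wild type 24, so part of such a shift may remain. The settings of RMA are not given in the sources used here. Of 23332 clusters, 14996 had 1 gene symbol, 1019 several and 7317 none. Where a gene had several, the cluster of highest mean was used. All 27 members matched RefSeq (GRCm38.p6) by Entrez identifier with 0 symbols changed. Differences were tested with limma 3.58.1 (lmFit, eBayes; R 4.3.3), two-sided, genotype as the only term, over all clusters and 7 arrays, with Benjamini-Hochberg adjustment. On simulated arrays of 23332 clusters the test called 3 of 50 genes set to 1.5-fold, 21 of 50 at 2-fold, 46 of 50 at 4-fold and 49 of 50 at 8-fold. All were changed together, came from brighter clusters and had independent noise without a shift of a whole array. These shares may therefore be too high for the data. The number of arrays limits the precision.

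Values per array are given for Ube2n, Ube2v2, Ube2c and the 10 other members with the smallest unadjusted p. From each list of partners or markers the 3 genes with the smallest unadjusted p are named. Genes named beyond that rule (among them Rnf7, Cul5, Trim25, Kit, Cd34, Traf6 and Eif2s3y) were chosen for their role, and Cd79b, S100a8, Cebpe and Mecom after their values were seen. Members and lists were chosen with earlier results of these data known. Alternatives were a filter at the 40th percentile of level, quantile normalization, centring on array medians, array weights, a trended robust prior, no moderation, 1 cluster per gene, the mean of a gene's clusters, a threshold of 0.1 and leaving out each array. Figures used matplotlib 3.10.9 in Python 3.11.15.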

Additional observations from a re-analysis of the deposited data

Results flagged for a closer look

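Of 78 clusters compared within wild type, 1 had an array far from the other three. Tnip1, which restrains NF-kB signalling, was at 8.33 on wild type 24, and the gap to the next array made up 0.976 of the range of the group. The cut used to flag a gap is one that chance alone passes in about 1 in 20 groups of this size. At that rate, 1 flag among 78 clusters is no more than chance alone gives. How rare a gap of 0.976 is was not computed.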

How the results depend on the processing

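In 0 of the alternatives did a member pass the adjusted threshold. The count of all clusters that passed was 3 to 6 apart from leaving out labelled transgenic 05, with 2, and was 3 without wild type 21, 22 or 24 (range 2 to 4 on leaving out 1 array). Members higher at unadjusted p under 0.05, 2 with all arrays, became 4 after quantile normalization, 5 after centring and 6 with array weights, and ranged from 1 (without labelled transgenic 03 or 04, or wild type 22) to 7 (without 05). Members lower, 3 with all arrays, ranged from 1 (without labelled transgenic 05, or wild type 23 or 24) to 4. Shares of all clusters were counted only with all arrays as deposited and without labelled transgenic 05. The counts under other settings have no background. The median over members was 0.0889 with array weights and ranged from -0.0719 to 0.11 on leaving out 1 array. Ube2c ranged from 0.47 to 0.58. Its direction could not change on leaving out 1 array, since its groups did not overlap. Settings such as the level filter and no moderation leave the estimate itself as it was. Ube2n ranged from 0.00285 to 0.38 on leaving out 1 array. Ube2v2 changed sign after centring (0.0205) and with array weights (0.0889), and ranged from -0.15 to 0.11 on leaving out 1 array. Partners that changed sign with array weights were Aktip (0.0705), Atg10 (0.0434), Nae1 (0.0321) and Uevld (0.15). On leaving out 1 array Aktip ranged from -0.18 to 0.14, Atg10 from -0.27 to 0.0250, Nae1 from -0.36 to 0.10, Uevld from -0.21 to 0.18 and Ufm1 from -0.14 to 0.0358. The causes were not tested. The difference of Ube2v1 could not be given under any setting, since it has no cluster of its own. No paired analysis was possible because the groups share no replicate numbers.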

Other observations

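The clusters that Ube2v1, Ube2g2 and Ube2j2 share with a neighbouring gene are given as values that belong to neither gene alone. The cluster annotated to both Ube2v1 and Tmem189 stood at 8.48, 9.07 and 8.11 on labelled transgenic 03, 04 and 05, and at 8.54, 8.68, 8.28 and 8.39 in wild type, which puts the groups 0.08 apart (SE 0.23, adjusted p = 0.934 in limma). The cluster annotated to both Ube2g2 and Sumo3 differed by 0.22 (SE 0.16, adjusted p = 0.676), and that annotated to both Ube2j2 and Gm5801 by -0.00121 (SE 0.14, adjusted p = 0.999). All 3 had overlapping groups.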
